A study of Mus musculus with 18 samples.

Results

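Transcripts of 8 genes of the bile duct epithelium and the ductular reaction were followed in whole liver, kidney and lung of mice with inducible cyclin E1. The genes are Spp1, Spint1, Epcam, Sox9, Muc1, Cftr, Cdh1 and Sox4. They were taken by symbol, as genes of this group other than keratins and claudins, and all 8 of 8 were found among the 24062 gene symbols of the count table. The CCNE-TA mice carried a tetracycline-inducible Ccne1 transgene together with the activator rtTA, and the TA control mice carried rtTA alone. All mice were C57BL/6, had doxycycline from 3 weeks of age and were killed at 4 months, so both genotypes shared the activator and the drug. Each tissue of each genotype gave 3 libraries, 18 in all. The labels do not name the promoter that drives rtTA and do not tie library numbers to animals, so p-values measure the spread between these libraries.

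Bile ducts are lined by cholangiocytes, epithelial cells that modify and carry the bile made by hepatocytes. In injured livers, small ducts and progenitor-like cells multiply at the portal tracts, which is called a ductular reaction, and hepatocytes can take on ductal genes such as Sox9 and Spp1. Most of the genes considered here are also genes of other epithelia, including kidney tubules and airways, so their level in a whole organ depends on how much epithelium of each kind it holds. In whole tissue, more cells of a type and more RNA per cell cannot be told apart.

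Total counts ran from 26214869 to 61954486 in liver, 20352770 to 43202066 in kidney and 41597623 to 155323865 in lung. In each tissue the CCNE-TA libraries all had more Ccne1 than the TA libraries, at 287 ± 71.9 against 2.47 ± 0.386 CPM in liver, 718 ± 211 against 2.06 ± 0.505 CPM in kidney and 88.8 ± 32.1 against 3.59 ± 2.49 CPM in lung (mean ± SD, n = 3 per group; CPM are read counts scaled to library size within a tissue). Its edgeR adjusted p was 0.00012 in liver, 7.87e-05 in kidney and 0.897 in lung. The defining markers fitted the labelled organs. The summed 8 hepatocyte markers reached 153300 to 289600 CPM in the liver libraries and at most 1898 CPM elsewhere, the kidney tubule markers 16890 to 63350 CPM in kidney, and the lung epithelial markers 33440 to 87340 CPM in lung. In liver, kidney tubule markers were found in CCNE-TA 1, 2 and 3 and in TA 1 and were at or near 0 in TA 2 and TA 3, and pancreas acinar markers stood out in TA 1 and TA 2. Xist was at 781, 660 and 402 CPM in liver CCNE-TA 1, CCNE-TA 2 and TA 1 and at most 3.10 CPM in the other livers. Livers with Xist reads were thus 2 in CCNE-TA and 1 in TA, not balanced between genotypes. In lung, CCNE-TA 1 and TA 3 stood apart together for Cftr and Sox4. The affected results are given with and without these libraries.

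The promoter windows of the 3 genes with the greatest differences in liver are shown because these genes moved together. Each is the 250 bases before a RefSeq start on GRCm38.p6, on the plus strand and written 5′ to 3′, at chr5:104434861-104435110 for Spp1, chr2:119237110-119237359 for Spint1 and chr17:87635729-87635978 for Epcam. A second RefSeq window of Spp1, at chr5:104435942-104436191, is not printed and held none of the motifs searched. Capitals mark the motif found in Spint1.
Spp1: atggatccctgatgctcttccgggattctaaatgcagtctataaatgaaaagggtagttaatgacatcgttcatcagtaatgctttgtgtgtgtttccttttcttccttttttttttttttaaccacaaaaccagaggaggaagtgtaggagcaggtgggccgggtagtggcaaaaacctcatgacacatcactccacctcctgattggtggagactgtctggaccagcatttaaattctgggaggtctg
Spint1: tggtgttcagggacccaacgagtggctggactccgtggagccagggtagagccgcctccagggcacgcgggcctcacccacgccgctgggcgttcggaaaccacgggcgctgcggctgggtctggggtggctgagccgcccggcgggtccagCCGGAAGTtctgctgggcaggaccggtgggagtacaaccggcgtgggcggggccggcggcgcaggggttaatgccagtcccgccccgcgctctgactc
Epcam: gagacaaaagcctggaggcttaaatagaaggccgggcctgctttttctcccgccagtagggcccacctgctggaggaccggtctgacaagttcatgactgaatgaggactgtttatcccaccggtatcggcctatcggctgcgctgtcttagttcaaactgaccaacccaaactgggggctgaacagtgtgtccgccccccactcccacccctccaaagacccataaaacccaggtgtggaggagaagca
Searched on both strands were TGGGAA (the core bound by RBPJ of the Notch pathway), GGAATG (the core bound by TEAD factors), TGANTCA (AP-1) and CCGGAAGT (a long ETS core). Spint1 held the ETS core 98 to 91 bases before the start. Spp1 and Epcam held none of the 4 motifs in these windows. The ETS core was present in 2.9% of 32851 RefSeq promoter windows of the same length. Of the other members, Muc1 held the TEAD core and Sox4 the RBPJ and TEAD cores, which stood in 12.6% (TEAD) and 21.6% (RBPJ) of all windows, and Cftr held none. No matches overlapped. A match describes letters in this window and not a bound site. RefSeq windows were matched for 6 of the 8 genes, and Sox9 and Cdh1 were not matched.

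In liver, Spp1, Spint1, Epcam and Sox9 rose in CCNE-TA, by about 6.0-fold, 5.2-fold, 3.9-fold and 2.0-fold, and no member fell. Thus 4 of 8 members passed the test as higher, where 13.7% of the 13811 genes tested did so and 28.5% passed in either direction. All 8 members passed the filter on low counts. In 5 of 8 members every CCNE-TA library lay above every TA library, where 23.2% of all genes did. The median log2 fold change of the 8 members was 1.19, beside 0.02 over all genes tested. The members were chosen with earlier results of these data known, so these shares and medians describe them and do not test the group.

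**Figure D1:**
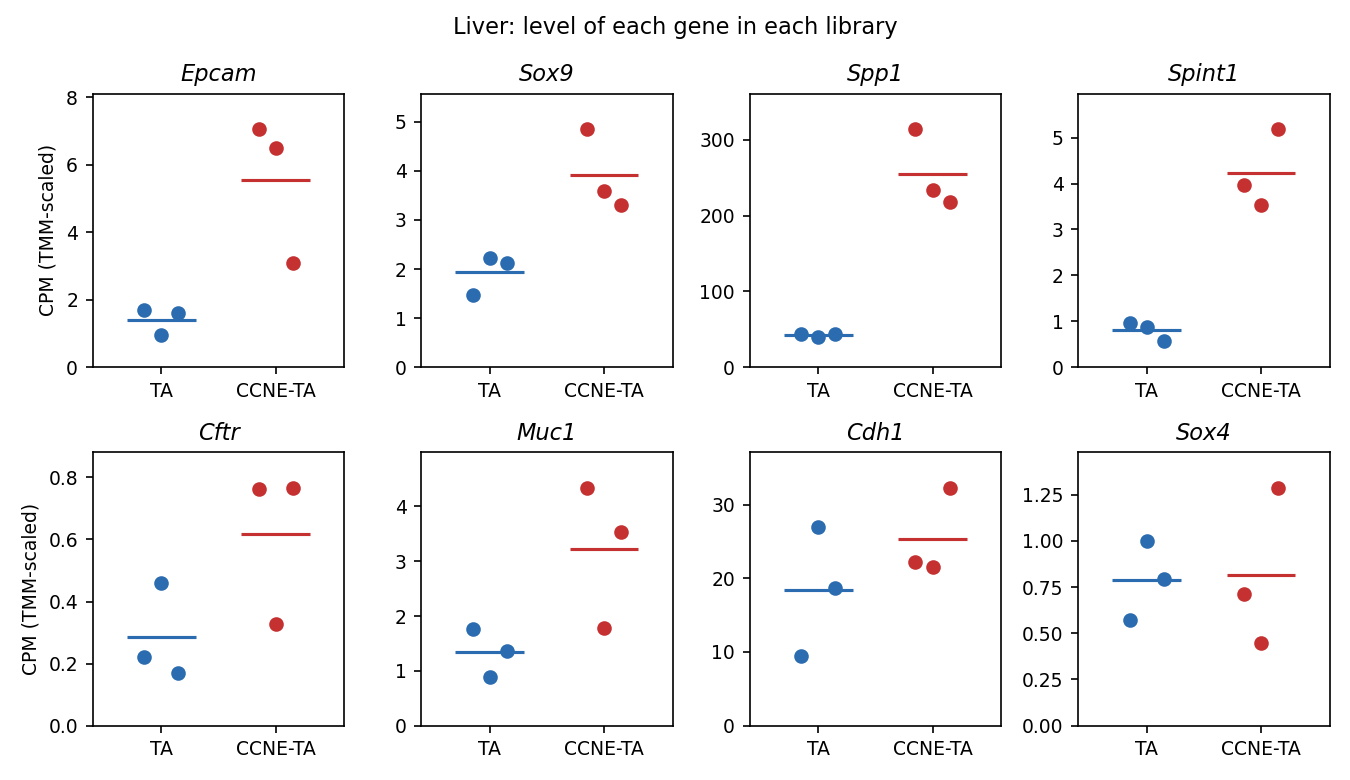
Level of each of the 8 genes in each liver library, in CPM on linear axes from 0, with TA in blue, CCNE-TA in red and the group mean as a bar (n = 3 per group). The groups do not overlap for Epcam, Sox9, Spp1, Spint1 and Muc1, and they overlap for Cftr, Cdh1 and Sox4.

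Spp1 encodes osteopontin, a secreted phosphoprotein of the matrix that bile duct cells make and that binds integrins and CD44. Its level was 314, 234 and 218 CPM in CCNE-TA 1, 2 and 3 and 44.3, 40.4 and 43.5 CPM in TA 1, 2 and 3. The TA libraries lay close together, and the lowest CCNE-TA library was far above the highest of them. The means were 255 ± 51.5 and 42.8 ± 2.03 CPM (SD, n = 3), a log2 fold change of 2.58 ± 0.22 (SE; adjusted p = 0.000865, edgeR), which ranked the gene 23 by p among all genes tested. Spp1 lies at chromosome 5, 104435118 to 104441050, plus strand, in mm10 (GENCODE M21), and the uncharacterised model Gm42793 on the same strand covers 18.8% of its exon bases. Within the livers with Xist reads the difference of log2 means was 2.62 (2 CCNE-TA against 1 TA), and within those near 0 it was 2.38 (1 against 2).

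Spint1 encodes HAI-1, a membrane-bound inhibitor of serine proteases of epithelial surfaces, among them matriptase and the activator of hepatocyte growth factor. In CCNE-TA 1, 2 and 3 it reached 3.96, 3.54 and 5.18 CPM, against 0.971, 0.865 and 0.569 CPM in TA 1, 2 and 3. These were low levels, from 151 to 169 counts in CCNE-TA and 20 to 61 in TA, and the groups were well apart. The log2 fold change was 2.39 ± 0.35 (SE; adjusted p = 0.00453, edgeR), from means of 4.23 ± 0.854 and 0.801 ± 0.209 CPM (SD, n = 3). Within the livers with and without Xist reads the differences were 1.95 and 2.89. Spint1 spans chromosome 2, 119237362 to 119249527, plus strand.

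Epcam encodes a surface adhesion molecule that marks bile duct and progenitor cells in the liver and is absent from mature hepatocytes. It stood at 7.06, 6.50 and 3.10 CPM in CCNE-TA and 1.70, 0.946 and 1.59 CPM in TA. CCNE-TA 3 was less than 50% of the other CCNE-TA livers and still above every TA liver. The log2 fold change was 1.97 ± 0.40 (SE; adjusted p = 0.0116, edgeR), and within the livers with and without Xist reads the differences were 1.99 and 1.34. Without CCNE-TA 1 the log2 fold change was 1.78 with an adjusted p of 0.0502 in edgeR. The gene spans chromosome 17, 87635979 to 87651129, plus strand.

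Sox9 encodes a transcription factor of the bile duct lineage. It stood at 4.85, 3.59 and 3.31 CPM in CCNE-TA and 1.46, 2.22 and 2.13 CPM in TA. Every CCNE-TA liver was above every TA liver, by a narrower margin than for the genes above. The log2 fold change was 1.02 ± 0.31 (SE; adjusted p = 0.042, edgeR), close to the threshold of 0.05. The call was lost in 5 of the 6 fits that left out 1 liver (adjusted p 0.0534 to 0.148), with no filter (0.058), with Xist as a covariate (0.0883) and in 1 fit of all 18 libraries (0.251). The differences of log2 means were 1.51 and 0.61 within livers with and without Xist reads. Sox9 spans chromosome 11, 112782224 to 112787760, plus strand.

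Muc1, a transmembrane mucin of the apical surface of ducts and glands, did not pass. It stood at 4.34, 1.78 and 3.53 CPM in CCNE-TA and 1.77, 0.892 and 1.37 CPM in TA, so that the groups were separate by little: CCNE-TA 2 was barely above TA 1. The log2 fold change was 1.25 ± 0.43 (SE; adjusted p = 0.058, edgeR). It passed with DESeq2 (adjusted p = 0.0194), with upper quartile scaling (0.0405), in 1 fit of all 18 libraries (0.0102) and without CCNE-TA 2 (0.0237). With offsets for length and GC content the log2 fold change was 0.89 (0.133). The differences of log2 means were 0.65 and 1.68 within livers with and without Xist reads. Muc1 spans chromosome 3, 89229057 to 89233381, plus strand.

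Cftr, the chloride channel through which cholangiocytes drive bile fluid secretion, was near the limit of detection. It had 30, 14 and 25 counts in the CCNE-TA livers and 14, 17 and 6 in the TA livers, or 0.762, 0.328 and 0.767 against 0.223, 0.459 and 0.171 CPM. The groups overlapped, and the log2 fold change of 1.12 ± 0.60 had an adjusted p of 0.185 in edgeR. This difference did not exceed the spread between libraries. Cftr spans chromosome 6, 18170687 to 18322768, plus strand.

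Cdh1 encodes E-cadherin, the adherens junction protein of epithelia, which periportal hepatocytes also make. It stood at 22.2, 21.6 and 32.3 CPM in CCNE-TA and 9.42, 26.9 and 18.7 CPM in TA. TA 2 was above 2 of the CCNE-TA livers, and TA 1 was the lowest of all. The log2 fold change was 0.47 ± 0.36 (adjusted p = 0.346, edgeR). With Xist as a covariate it was 1.03 (adjusted p = 0.0308), and the differences within livers with and without Xist reads were 1.22 and 0.52. Cdh1 spans chromosome 8, 106603351 to 106670246, plus strand.

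Sox4, a transcription factor that acts with Sox9 in bile duct development, had 28, 19 and 42 counts in CCNE-TA and 36, 37 and 28 in TA. The groups overlapped fully, at 0.815 ± 0.431 and 0.79 ± 0.213 CPM, with a log2 fold change of 0.04 ± 0.52 (adjusted p = 0.957, edgeR). Sox4 spans chromosome 13, 28948919 to 28953713, minus strand. The antisense non-coding model Gm26735 covers 54.6% of its exon bases, and since the libraries do not mark the strand, reads of both cannot be told apart.

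In these livers longer transcripts tended to lower fold changes, so each gene was set beside the 10% of tested genes with the nearest exon length. The median log2 fold change of these genes was 0.33 for Spp1, 0.22 for Epcam, 0.11 for Spint1 and -0.02 for Sox9. The members lay above 97.9% (Spp1), 95.8% (Epcam), 97.4% (Spint1) and 85.3% (Sox9) of them. With offsets for length and GC content the log2 fold changes were 2.28, 1.65, 2.01 and 1.07 for Spp1, Epcam, Spint1 and Sox9, all still past the threshold (edgeR adjusted p 0.00113 to 0.0419).

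**Figure D2:**
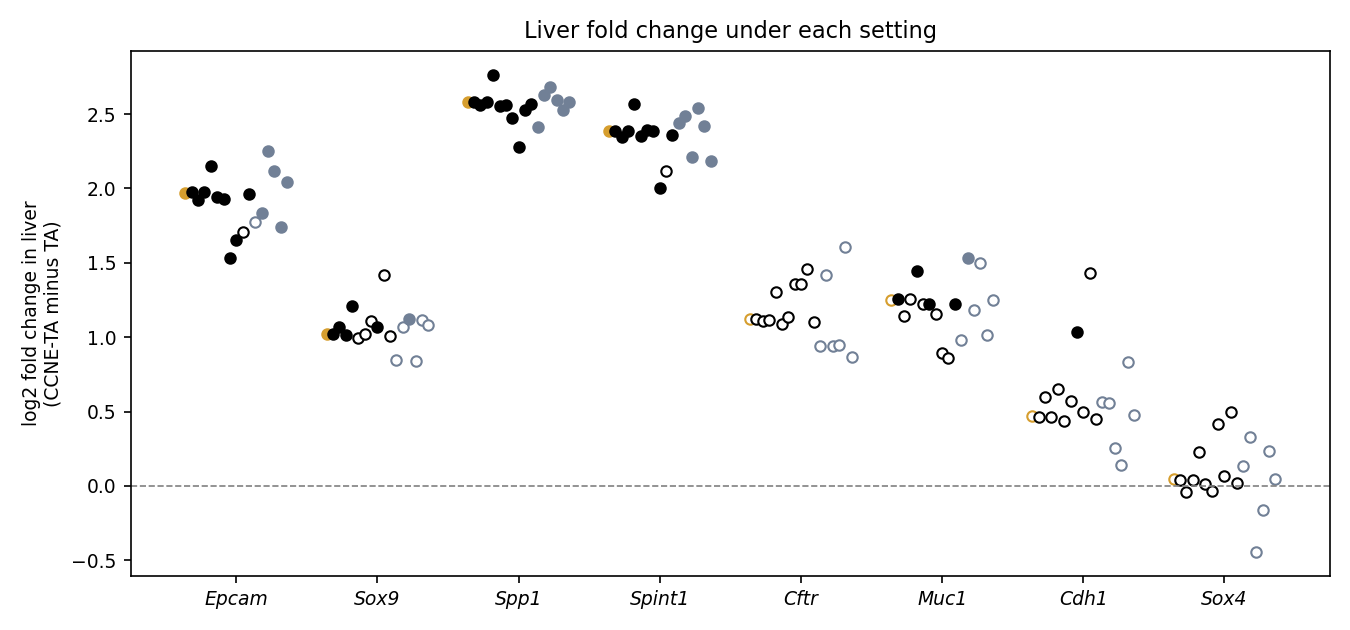
Log2 fold change of each gene in liver under each setting, with the fit as reported in orange, other settings in black, fits without 1 liver in grey and filled points for an adjusted p under 0.05. Spp1 lies between 2.28 and 2.76 under all settings shown, while Sox4 lies on both sides of 0.

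The keratins of the bile duct moved with these genes. Krt19 stood at 6.40, 3.89 and 3.07 CPM in CCNE-TA and 1.46, 1.62 and 1.88 CPM in TA, a log2 fold change of 1.43 ± 0.35 (SE; adjusted p = 0.02, edgeR), and Krt7 rose by 1.33 ± 0.37 (adjusted p = 0.0298). Of 7 bile duct markers, 6 could be tested and 5 rose (Krt19, Krt7, Epcam, Sox9 and Prom1), where 13.7% of all genes tested did. Epcam and Sox9 are also members, so this count and the sums that follow repeat their values in part. On the scale of all 18 libraries, the 7 markers summed to 32.1 to 58.5 CPM in CCNE-TA and 24.0 to 24.4 CPM in TA. Pkhd1, which encodes the cilium protein fibrocystin, did not pass, with a log2 fold change of -0.16 ± 0.23 (adjusted p = 0.626). Sctr, the secretin receptor, was at 0.432, 0.141 and 0.675 CPM in CCNE-TA and at 0.0318, 0 and 0 CPM in TA, too low for the test.

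Markers of other cell types were read in the same livers, where 13.7% of all genes tested rose and 14.8% fell. Hepatocyte markers fell for 2 of 8 (Cps1 and Hnf4a), and their summed levels overlapped at 153300 to 289600 CPM in CCNE-TA and 174900 to 244500 CPM in TA. The macrophage sums overlapped too, at 401 to 675 and 407 to 920 CPM, although 3 of 8 markers rose (Trem2, Gpnmb and Cd9, genes of activated macrophages) and Emr1, which encodes the macrophage marker F4/80, fell by 1.997 ± 0.36 on the log2 scale (adjusted p = 0.00805, edgeR). Spp1 is made by such macrophages as well as by ductal cells. The part of macrophages in the Spp1 result was not tested. Of the 8 stellate and mesenchymal markers only Col3a1 rose, and the sums overlapped (406 to 666 and 369 to 501 CPM). The lung epithelial and gut epithelial lists had 2 of 7 and 2 of 4 tested genes higher. The summed lung markers overlapped (72.0 to 103 CPM in CCNE-TA, 93.8 to 109 CPM in TA), and the gut markers overlapped narrowly (89.4 to 143 CPM against 66.5 to 90.3 CPM), with the gut regulators Cdx1 and Cdx2 at 0 in every liver.

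Kidney tubule markers set TA 2 and TA 3 apart from the other 4 livers, and 0 of 7 tested passed between genotypes. Kap, an abundant transcript of proximal tubules, had 22.8, 13.1 and 25.6 CPM in the livers CCNE-TA 1, 2 and 3 and 13.8 CPM in TA 1, and it was absent from TA 2 and TA 3 (0 CPM). The 8 markers summed to 29.4 to 57.8 CPM in CCNE-TA and 0.0941 to 31.8 CPM in TA. Without Kap they amounted to 0.0759% to 0.177% of their level in TA kidney in the CCNE-TA livers and 0.00111% to 0.0887% in the TA livers. That share of the TA kidney level equals 0.274% to 0.718% of the Spp1, 1.75% to 3.16% of the Spint1, 0.746% to 3.82% of the Epcam and at most 0.0089% of the Sox9 measured in the CCNE-TA livers. A term for TA 2 and TA 3 leaves TA 1 as the only control, a lone library assumed to vary like the other groups. In that fit 1 member passed, Spp1 at 2.53 (adjusted p = 0.0273, edgeR), and 259 genes passed in place of 3942. The log2 fold changes were 2.12 for Spint1 (adjusted p = 0.0842), 1.70 for Epcam (0.155) and 1.42 for Sox9 (0.132), and 1.43 for Cdh1 (0.0887), 1.46 for Cftr (0.36), 0.86 for Muc1 (0.421) and 0.50 for Sox4 (0.717). Pancreas markers, which summed to 310 CPM in TA 1, were at most 2.22 CPM in the CCNE-TA livers.

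**Figure D3:**
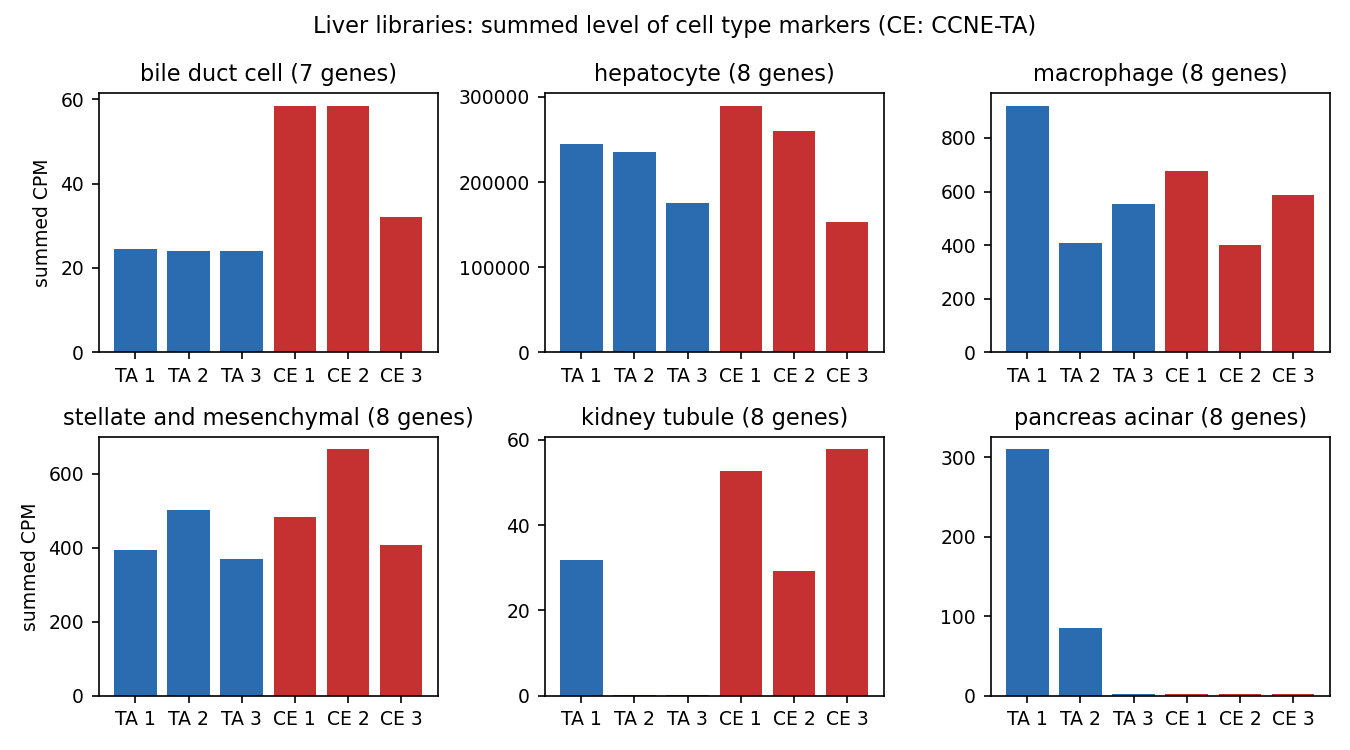
Summed level of the markers of each cell type (7 for bile duct, 8 for the others) in each liver library, in CPM on the scale of all 18 libraries, with TA in blue and CCNE-TA (CE) in red. The bile duct sums lie at 32.1 to 58.5 CPM in CCNE-TA and 24.0 to 24.4 CPM in TA, the hepatocyte and macrophage sums overlap, and the kidney sums are high in 4 of the 6 livers. The bile duct sums include the members Epcam and Sox9.

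The genes that work with the members in liver did not all follow them. Over all genes tested, 13.7% rose and 14.8% fell, the shares against which the counts of each list are read. The lists too were chosen with earlier results of these data known, so their counts are a description. Of 19 other bile duct and ductular genes, 17 were tested, 8 rose and 2 fell, with a median log2 fold change of 1.36. The 19 include Prom1, Pkhd1 and Sctr of the bile duct markers above, and Prom1 is among the 8 that rose. Ehf, an epithelial ETS factor, rose by 2.35 ± 0.36 (SE; adjusted p = 0.00549, edgeR), the matrix protease Mmp7 by 3.75 ± 0.76 (0.012) and the surface protein Cd24a by 1.22 ± 0.27 (0.0147). Mmp7 was low in TA, at 0.376 ± 0.46 CPM, against 5.46 ± 1.41 CPM in CCNE-TA (SD, n = 3). Aqp1, a water channel of ducts and vessels, went the other way and fell by 1.65 ± 0.27 on the log2 scale (0.00663). Onecut1, a hepatic transcription factor, fell too, by 3.15 ± 0.76 (0.0274). Its TA livers differed widely, at 27.27 ± 24.05 CPM, against 3.08 ± 1.57 CPM in CCNE-TA (SD, n = 3).

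Around Spint1, 11 of 12 genes of its proteases and the hepatocyte growth factor axis were tested, 3 rose and 2 fell, with a median of 0.46. St14, which encodes matriptase, rose by 2.31 ± 0.36 (adjusted p = 0.00535, edgeR), from 0.998 ± 0.307 CPM in TA to 5.02 ± 1.28 CPM in CCNE-TA (SD, n = 3). Prss8 (prostasin, a further membrane protease) and Spint2 (the related inhibitor HAI-2) were the others that rose. The growth factor Hgf fell by 2.14 ± 0.29 on the log2 scale (0.00348) and its receptor Met fell by 1.66 ± 0.20 (0.00265).

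Around Spp1, 11 of 13 receptors and cleaving proteases of osteopontin were tested. Itga5, an integrin chain, rose by 0.72 ± 0.16 (adjusted p = 0.0146, edgeR), and the chains Itgb1 and Itgb3 fell, with log2 fold changes of -0.75 ± 0.21 and -1.14 ± 0.32 (0.0297 and 0.0303). The receptor Cd44 had a log2 fold change of 0.45 ± 0.30 (0.285). The median of this list was -0.12.

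Of 15 Notch pathway genes, which act upstream of Sox9 in duct formation, 2 rose and 3 fell (median 0.32), near the shares over all genes. The target Hes1 rose by 1.54 ± 0.20 (adjusted p = 0.00335, edgeR). The receptor Notch2, which drives duct formation, fell by 0.92 ± 0.16 on the log2 scale (0.00701). Rbpj, the DNA-binding factor of the pathway, and the cofactor Maml1 fell too (log2 fold changes -0.75 ± 0.18 and -0.70 ± 0.20). Notch1 was the other gene that rose. Of the Hippo pathway and its targets, whose coactivator Yap1 takes part in ductular reactions, 13 of 14 genes were tested, 1 rose and 3 fell (median -0.04). The kinase gene Lats2 fell by 0.94 ± 0.21 on the log2 scale (0.0143), Crim1 fell by 1.03 ± 0.28 (0.0293) and Yap1 itself fell by 0.59 ± 0.17 (0.0337), while the target Cyr61 rose by 1.19 ± 0.34 (0.0347). Of 15 genes of TWEAK, FGF, LIF, oncostatin M, TGF-beta and PDGF signals, 12 were tested, 3 rose and 0 fell (median 0.30). The cytokine Tnfsf12 (TWEAK) rose by 1.68 ± 0.32 (0.00934), its receptor Tnfrsf12a by 1.51 ± 0.24 (0.00567) and the cytokine Lif by 3.81 ± 0.94 (0.0206). Lif was near the limit of detection in TA, at 0.073 ± 0.082 CPM, against 0.962 ± 0.418 CPM in CCNE-TA (SD, n = 3).

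Among partners and repressors of E-cadherin, 12 were tested, 1 rose and 2 fell (median -0.23). Ctnnb1, which encodes beta-catenin, fell by 1.17 ± 0.25 on the log2 scale (adjusted p = 0.0134, edgeR), Cdh2 (N-cadherin) fell by 1.01 ± 0.27 (0.0271) and Vim, an intermediate filament gene of mesenchymal cells, rose by 0.98 ± 0.19 (0.0106). Of 11 tested genes of ductal ion and water transport, which work with Cftr, the carbonic anhydrase Car2 rose by 1.24 ± 0.28 (0.0166), the potassium channel Kcnn4 rose by 1.54 ± 0.45 (0.0358) and the cotransporter Slc12a2 fell by 1.24 ± 0.25 on the log2 scale (0.0113), with a median of 0.01. In the list set beside Muc1, 3 genes were tested (Muc13, Emcn and Mcam) and 1 rose. This was Muc13, at 0.621 ± 0.0617 CPM in CCNE-TA and with no counts in TA. Of 7 tested Sox family genes, Sox17 rose by 1.58 ± 0.48 (0.04) and Sox6 fell by 1.10 ± 0.23 on the log2 scale (0.0127), with a median of -0.46.

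In kidney no member passed the test, where 2 of 15247 genes tested (0.0131%) did, and 1 member had an unadjusted edgeR p under 0.05, as did 324 genes. No member passed with DESeq2 or limma-voom. Cftr was the member in question, and the only one whose groups did not overlap (3.04% of all genes had every CCNE-TA library above every TA library). It stood at 3.61, 2.66 and 1.51 CPM in CCNE-TA and 0.622, 0.964 and 1.30 CPM in TA, a log2 fold change of 1.42 ± 0.47 (adjusted p = 0.999, edgeR). Spp1, which tubule cells make, was at 7145, 1974 and 1022 CPM in CCNE-TA and 1769, 2332 and 1157 CPM in TA. CCNE-TA 1 was far above the rest, and the log2 fold change of 0.95 ± 0.64 became -0.23 without it. Sox9 had 18, 21 and 6 counts in CCNE-TA and 0, 28 and 7 in TA, too few to show a change. Sox4 was at 7.35, 3.73 and 3.30 CPM in CCNE-TA and 2.84, 4.29 and 2.68 CPM in TA, with overlapping groups. The epithelial genes were high in both genotypes, with overlapping libraries: Epcam at 134 ± 10.5 and 133 ± 22.6 CPM, Spint1 at 174 ± 18.2 and 170 ± 18.7 CPM, Cdh1 at 187 ± 25.6 and 199 ± 42.0 CPM, and Muc1 at 79.1 ± 18.3 and 68.3 ± 23.6 CPM (SD, n = 3).

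In lung no member passed either, where 1 of 16823 genes (0.00594%) did, and 0 members had an unadjusted edgeR p under 0.05, as against 614 genes. Ccne1 itself did not pass in lung despite a 24.5-fold rise (adjusted p = 0.897, edgeR), so the lack of calls does not show a lack of change. DESeq2 and limma-voom called 0 members. Cdh1 was lower in every CCNE-TA library, at 392, 422 and 393 CPM against 427, 497 and 503 CPM in TA, a log2 fold change of -0.24 ± 0.13 (adjusted p = 0.9999, edgeR). Cftr was at 17.6, 10.9 and 8.39 CPM in CCNE-TA and 9.49, 10.5 and 20.8 CPM in TA. Sox4 was at 33.9, 16.5 and 20.2 CPM in CCNE-TA and 15.2, 16.9 and 35.3 CPM in TA. For both genes CCNE-TA 1 and TA 3 were the highest lungs, 1 in each genotype. Without these libraries the log2 fold changes were -0.05 for Cftr and 0.20 for Sox4, and still 0 members passed. Spp1 was at 150 ± 20.4 and 140 ± 30.4 CPM, and its log2 fold change went from 0.11 to -0.17 without CCNE-TA 1 and TA 3. Epcam stood at 77.3 ± 10.5 and 83.8 ± 13.0 CPM, Spint1 at 78.5 ± 5.11 and 80.9 ± 8.30 CPM, Muc1 at 250 ± 13.5 and 275 ± 35.9 CPM and Sox9 at 0.74 ± 0.344 and 0.988 ± 0.214 CPM (SD, n = 3). In neither kidney nor lung did any gene of the pathway lists pass.

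**Figure D4:**
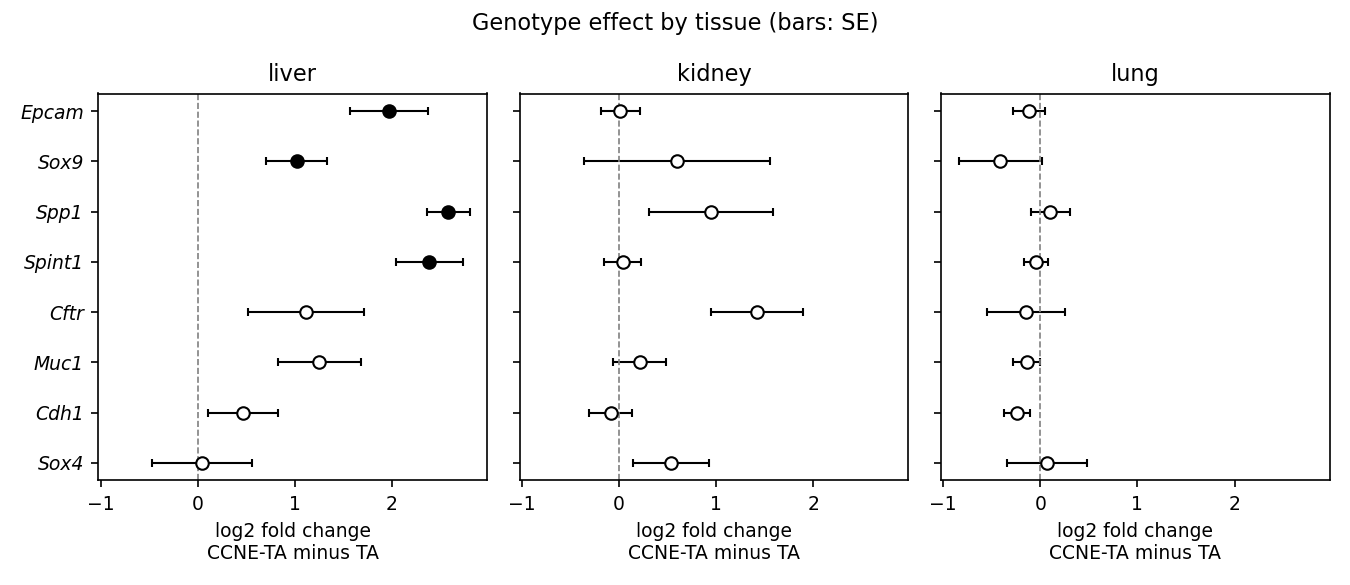
Log2 fold change of each of the 8 genes (CCNE-TA minus TA) with its SE, by tissue, with filled points for an edgeR adjusted p under 0.05. Only the liver panel holds filled points: Epcam, Sox9, Spp1 and Spint1. In lung the induced Ccne1 did not pass either (adjusted p = 0.897, edgeR), so open points there do not show a lack of change.

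The difference between tissues was tested in 1 fit of all libraries. The genotype effect was larger in liver than in kidney for Spint1, by 2.32 ± 0.26 (SE) on the log2 scale (adjusted p = 0.000845, edgeR), and for Epcam, by 1.95 ± 0.39 (0.0119). These were 2 of 8 members, where 9.52% of 17155 genes differed. The effect was larger in liver than in lung for Spint1, by 2.39 ± 0.26 (0.000416), Epcam, by 2.06 ± 0.39 (0.0076), and Spp1, by 2.45 ± 0.70 (0.0328), 3 of 8 members where 12.7% of genes differed. Spp1 did not pass between liver and kidney, at 1.64 ± 0.69 (0.131), and passed at 2.79 (0.0059) without kidney CCNE-TA 1. Its difference from lung was lost in 9 of the 18 fits that left out 1 library (adjusted p 0.0517 to 0.0814). Sox9, at 0.41 ± 0.99 against kidney and 1.41 ± 0.92 against lung, was not shown to differ between tissues. Between kidney and lung 0 members differed, where 0.00583% of genes did.

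In TA mice the members had distinct tissue orders, compared here per length as CPM per kb of exon on the scale of all 18 libraries. In liver Spp1 led at 45.1 ± 2.30 CPM per kb, followed by Cdh1 at 6.96 ± 3.31, and these did not overlap with the rest. Epcam (1.12 ± 0.326), Muc1 (0.994 ± 0.332) and Sox9 (0.813 ± 0.166) lay within their spread of each other, followed by Spint1 at 0.504 ± 0.138, Sox4 at 0.286 ± 0.0762 and Cftr at 0.0637 ± 0.0346 CPM per kb. In CCNE-TA liver the mean of Spint1 was 2.62 ± 0.458 CPM per kb, beside Muc1 at 2.36 ± 0.956. Mean Epcam was above Spint1, at 4.38 ± 1.76, and mean Sox9 below it, at 1.63 ± 0.365. Libraries of Spint1 and Epcam overlapped, with Spint1 at 3.13 and Epcam at 2.36 CPM per kb in CCNE-TA 3. Spp1 again led at 267 ± 57.7 (SD, n = 3).

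Spint1 and Epcam were highest in kidney, at 51.7 ± 5.65 and 51.0 ± 8.78 CPM per kb, and lower in lung, at 19.96 ± 1.87 and 26.1 ± 4.28. The log2 difference of TA liver minus TA kidney was -6.66 ± 0.23 for Spint1 and -5.50 ± 0.33 for Epcam (edgeR adjusted p 2.79e-11 and 1.26e-09). Spp1 was highest in kidney, at 898 ± 305 CPM per kb, while liver and lung (58.1 ± 13.1) did not differ beyond the test (adjusted p = 0.515). Muc1 and Cdh1 were highest in lung, at 80.2 ± 10.96 and 71.1 ± 6.11 CPM per kb, then in kidney, at 24.5 ± 8.39 and 36.6 ± 7.63. Cftr and Sox4 were highest in lung too, at 1.19 ± 0.535 and 3.19 ± 1.56 CPM per kb, and their liver and kidney levels did not differ beyond the test (adjusted p 0.236 and 0.0578). Sox9 alone was highest in liver, 3.50 ± 0.74 above kidney and 2.31 ± 0.68 above lung on the log2 scale (adjusted p 0.000667 and 0.00673), and kidney (0.0674 ± 0.0693 CPM per kb) and lung (0.163 ± 0.0348) did not differ beyond the test (0.161). In all, 6 of 8 members differed between liver and kidney, 7 between liver and lung and 7 between kidney and lung, where 62.2%, 68.5% and 57.3% of all genes did.

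**Figure D5:**
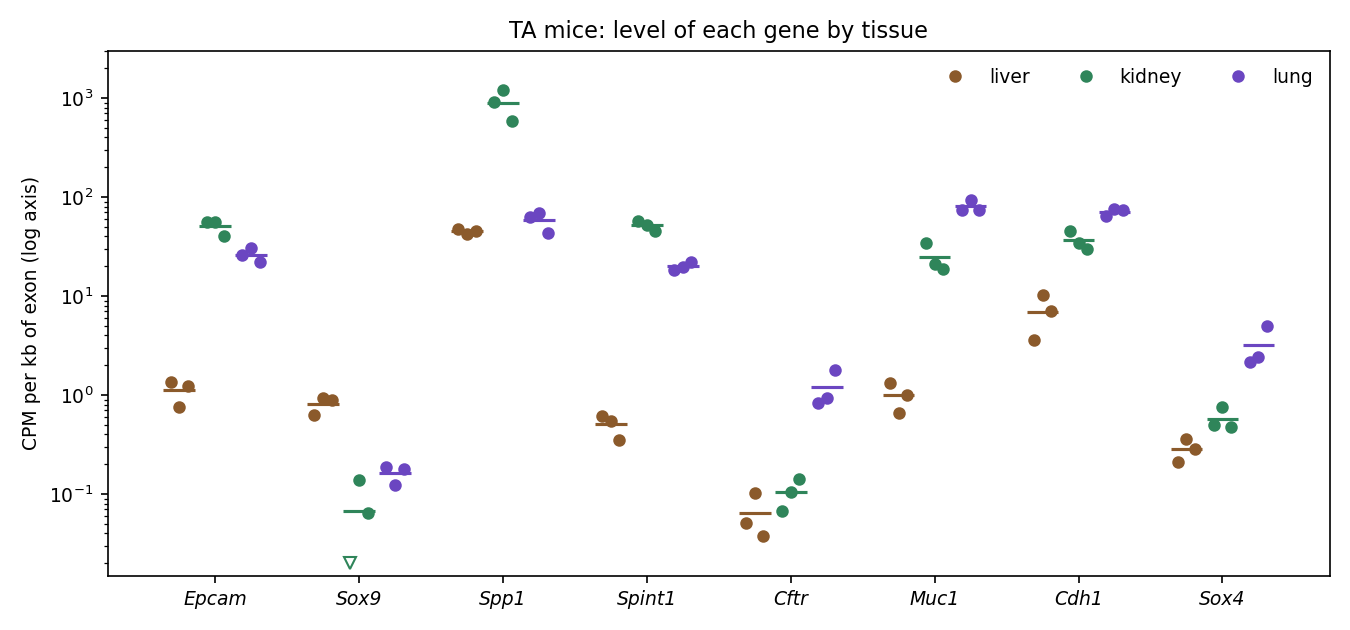
Level of each gene in the TA libraries of liver (brown), kidney (green) and lung (purple), in CPM per kb of exon on a log axis, with group means as bars (n = 3) and an open triangle for a library with 0 counts. Sox9 is the gene whose liver points lie above both other tissues. The liver points lie below both other tissues for Spint1, Epcam, Muc1, Cdh1 and, by less, Sox4.

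Over all 18 libraries the tissue differences set most of the variation, and the genes with the most similar pattern were read as a description. Spint1 was most like St14, Cldn4 and Ehf (Pearson r of log2 CPM 0.997, 0.993 and 0.991), and Epcam was most like Prom1 (0.99). Epcam and Spint1 had an r of 0.98 with each other, while Epcam and Sox9 had -0.79. The nearest gene was Mgst3 for Spp1 (0.96), Ccl9 for Sox9 (0.91), Vim for Cftr (0.95), Pde8b for Muc1 (0.99), Lrrc49 for Cdh1 (0.99) and Dab2ip for Sox4 (0.97).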

How the data were processed

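Whole liver, kidney and lung were sequenced as bulk RNA in 18 libraries, 3 for each tissue and genotype. The deposited table holds raw counts, integers for each gene symbol and library, to which the authors applied no normalization. Per the submitters' processing notes, TopHat2 2.0.14, Bowtie2 2.2.6 and featureCounts 1.4.6 were used with build mm10. The annotation, strand setting and handling of multiply aligned reads are not given in the sources used here. Per the labels' protocols, the TruSeq RNA kit was used, which does not mark strand. Even numbers made up 64.2% to 71.2% of counts from 1 to 20, so counts are not independent molecules. All columns were used.

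Each tissue was fitted with edgeR 4.0.16 (R 4.3.3; filterByExpr, TMM scaling, robust quasi-likelihood F test), with Benjamini-Hochberg adjustment over all tested genes and a threshold of 0.05. Differences between tissues came from 1 fit of all 18 libraries. CPM are TMM-scaled within a tissue, and the SE is the log2 fold change divided by the root of its F. The test was tried on simulated data first. Of 24062 symbols, 98.5% had an exon length from GENCODE M21, directly or by a RefSeq synonym.

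The members and lists were chosen with earlier results of these data known. Named are all members, Ccne1, up to 4 tested genes of each list with the smallest liver p, list genes set beside a member, and the genes most correlated with each member. Further list and marker genes were named after their values were seen. An item of the bile duct lists is not reported here. Alternatives were DESeq2 1.42.0, limma-voom 3.58.1, other scalings, no filter, a replicate block, Xist, length and GC offsets (splines with 4 degrees of freedom), 1 fit of all libraries, leaving out each library, and, in liver, a term for TA 2 and TA 3. The fit without lung CCNE-TA 1 and TA 3 was chosen after seeing the data. Same-numbered kidney libraries deviated together (r across genes 0.31, 0.49 and 0.34), a pairing seen in the data only, since the labels give none.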

Additional observations from a re-analysis of the deposited data

Results flagged for a closer look

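The genotype effect differed between tissues for 3 members by the interaction test in edgeR. Over all genes tested, 9.52% differed between liver and kidney and 12.7% between liver and lung. The effect on Spint1 was larger in liver than in kidney by 2.32 and than in lung by 2.39 on the log2 scale (adjusted p 0.000845 and 0.000416). For Epcam the differences were 1.95 against kidney and 2.06 against lung (adjusted p 0.0119 and 0.0076). For Spp1 the difference was 2.45 against lung (adjusted p = 0.0328). That call was lost in 9 of the 18 fits that left out 1 library. The Spp1 difference of 1.64 against kidney did not pass (adjusted p = 0.131, edgeR). Every CCNE-TA liver was above every TA liver for these 3 genes, as for 23.2% of all genes tested in liver. The groups compared have 3 libraries each, and outlying libraries were not tested in groups of that size.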

How the results depend on the processing

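No fold change or difference reversed a called direction. In liver, 4 members and 3942 genes passed. A term for TA 2 and TA 3, with 1 library (TA 1) as the only control, left 1 member and 259 genes. Leaving out 1 liver gave 2 to 4 members and 1521 to 4582 genes, with 2 members (Spp1 and Spint1) and 1521 genes without CCNE-TA 1, and 2513, 1832 and 1670 genes without TA 1, TA 2 and TA 3. Upper quartile scaling moved the median log2 fold change of all genes from 0.02 to 0.21 and the split from 1897 higher and 2045 lower to 2610 and 1367, with Spp1 at 2.76. In kidney 2 genes passed, 28 with DESeq2 and 1 to 2 without 1 library. In lung 1 gene passed, 183 with DESeq2, 0 with limma-voom, 94 in 1 fit of all libraries, 0 with the replicate block and 0 to 1 without 1 library. Members called in kidney and lung were 0 under every alternative run. With the replicate block, 4 members passed in liver (Sox9 lost at an adjusted p of 0.0765, Muc1 gained at 0.0403; 3323 genes) and 0 in kidney (3 genes; Spp1 at 0.50). The numbers do not pair the libraries in liver (r 0.20, -0.0018 and 0.08) or lung (-0.48, -0.10 and -0.59), where not every library correlated best with its own number. Of the single-gene values, 1528 stayed on their side of the threshold, 45 of these with a changed sign and uncalled in both fits, 25 newly passed and 23 no longer passed. Low counts limit Cftr, Sox4 and kidney Sox9, and list genes such as Lif, Mmp7 and Muc13 in TA liver.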
